A study of Mus musculus with 10 samples.

Results

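The genes described here encode MHC class II presentation, and they are followed across liver arrays of TAK1 knockout and wild-type mice. They were chosen by name: the class II chains H2-Aa, H2-Ab1, H2-Eb1 and H2-Ea, the invariant chain Cd74, the peptide loading chains H2-DMa and H2-DMb1, the loading inhibitors H2-Oa and H2-Ob, and the transactivator Ciita, which the files list under its older symbol C2ta. These 10 genes were read by 15 probes, of 41174 non-control probes carrying 27670 gene names.

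The TAK1 of this study is the nuclear orphan receptor TR4, product of Nr2c2, and not the kinase of the same short name. Liver RNA of TAK1 KO and of WT mice, all C57BL/6 and 1 year old, was read on Agilent 1-colour mouse arrays (Cy3), with 5 arrays in each group. The arrays are called KO1 to KO5 and WT1 to WT5 by the replicate number in their labels. The labels give neither how the allele was made nor the sex and diet of the mice. They also do not say whether the arrays come from separate mice, so the p-values measure only the spread between these samples, which may be technical.

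Class II molecules are surface heterodimers that show peptides from endocytosed proteins to CD4 T cells. An alpha and a beta chain assemble on the invariant chain, which blocks the groove and is then cut away by endosomal proteases. The DM heterodimer exchanges the remaining fragment for antigenic peptide, and the DO heterodimer holds DM back. In mouse liver these genes are known mainly from B cells, dendritic cells and macrophages, with lower expression in sinusoidal endothelium, while the resting hepatocyte is not a professional presenting cell. Transcription in these cells depends on the coactivator CIITA, which is recruited to X and Y boxes upstream of class II genes by the RFX, CREB and NF-Y factors, and which interferon-gamma induces in many cell types.

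The upstream sequence is shown because X and Y boxes lie upstream of class II genes. Whether these letters have a part in the array patterns below was not tested. Promoter windows were matched in RefSeq (build GRCm38.p6) for 6 of the 10 genes, in 7 windows of 300 bases. The windows were searched on both strands for the Y box letters CTGATTGG, for their core ATTGG, which lies inside CTGATTGG, and for the X box letters TAGNAAC. CTGATTGG was found in H2-Aa, H2-Eb1 and H2-Oa, and in 4.10% of all 32851 windows. TAGNAAC was found in H2-Eb1, H2-DMb1 and H2-Ob, and in 11.4% of all windows. ATTGG was found in a window of each of the 6 genes, though for H2-DMa in only 1 of its 2 windows and far from the start site, and in 37.4% of all windows. The 130 bases before the start site follow for the 5 genes with a longer match, each 5′ to 3′ on its own strand, with the matched letters in capitals. CCAAT in H2-Eb1 is ATTGG read on the other strand.
H2-Aa (chr17:34287824-34287953, minus strand): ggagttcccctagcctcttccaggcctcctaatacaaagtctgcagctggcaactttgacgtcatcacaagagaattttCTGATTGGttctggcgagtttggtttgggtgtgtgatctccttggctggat
H2-Eb1 (chr17:34305737-34305866, plus strand): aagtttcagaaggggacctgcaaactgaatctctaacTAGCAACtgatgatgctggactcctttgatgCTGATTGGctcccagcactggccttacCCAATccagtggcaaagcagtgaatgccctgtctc
H2-DMb1 (chr17:34153061-34153190, plus strand): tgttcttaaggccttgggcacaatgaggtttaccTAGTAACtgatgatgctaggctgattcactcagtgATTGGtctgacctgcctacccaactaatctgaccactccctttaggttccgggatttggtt
H2-Oa (chr17:34092249-34092378, plus strand): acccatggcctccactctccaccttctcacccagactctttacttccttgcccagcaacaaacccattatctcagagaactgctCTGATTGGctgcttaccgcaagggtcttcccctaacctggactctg
H2-Ob (chr17:34238775-34238904, plus strand): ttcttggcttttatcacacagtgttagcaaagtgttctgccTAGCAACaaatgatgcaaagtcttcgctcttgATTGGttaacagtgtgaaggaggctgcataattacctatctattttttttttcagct
Counted back from the start site, the Y box letters begin at base -51 in H2-Aa, -62 in H2-Eb1 and -46 in H2-Oa. The X box letters begin at -93 in H2-Eb1, -96 in H2-DMb1 and -89 in H2-Ob, and in these 3 windows ATTGG follows downstream of them. A match describes these letters only and no binding was measured.

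The deleted gene was read first, as a check of the labels. A probe named for a cDNA that the files describe as the Nr2c2 protein (chr6:92237812-92237871, mm7) was well above background on 0 of 5 knockout arrays and on 5 of 5 wild-type arrays. Its signal was lower in the knockout by at least 5.41-fold (limma, adjusted p = 0.00021). For this bound each knockout array counts at the probe's signal or, if that is lower, at the dimmest signal still well above background there. Of the probes named Nr2c2, the one at chr6:92187254-92187312 differed by 0.36 ± 0.13 (SE, adjusted p = 0.144) and the one at chr6:92245007-92245066 by 0.44 ± 0.11 (adjusted p = 0.043), both upward, and the labels do not name the deleted part of the gene. Hepatocyte markers were above background on all 10 arrays for 9 of 9 genes with a probe. Between 51.6% and 62.9% of spots were well above background on each array. The arrays came from 4 slides: slide 2 carried KO1, KO2, KO3 and WT5, slide 1 the other wild-type arrays, and KO4 and KO5 had a slide each, that of KO4 scanned on a later day.

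Of the 15 class II probes, 13 of 8 genes were bright enough to be tested, and all 13 were higher on average in knockout than in wild-type liver, by 0.36 to 0.75 on the log2 scale, or 1.29-fold to 1.68-fold. None passed the test at an adjusted p under 0.05. The counts were 0 of 13 member probes called (limma, Benjamini-Hochberg over all 23266 kept probes), against 5.05% of all kept probes (2.06% higher and 2.98% lower in the knockout), and 3 of 13 at an unadjusted p under 0.05, against 22.9% of all. A positive difference was found for 13 of 13 member probes and for 51.4% of all. The median difference was 0.54 for the member probes and 0.01 over all kept probes. For each of the 13 probes the knockout and wild-type arrays overlapped, while 8.95% of all kept probes had groups that did not, among them 3.86% of all with every knockout array above every wild-type array. The probes of a gene share its RNA, and the genes varied together between arrays, so the 13 probes are not 13 independent observations. In whole liver RNA, more cells that carry class II and more class II RNA per cell cannot be told apart.

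**Figure D1:**
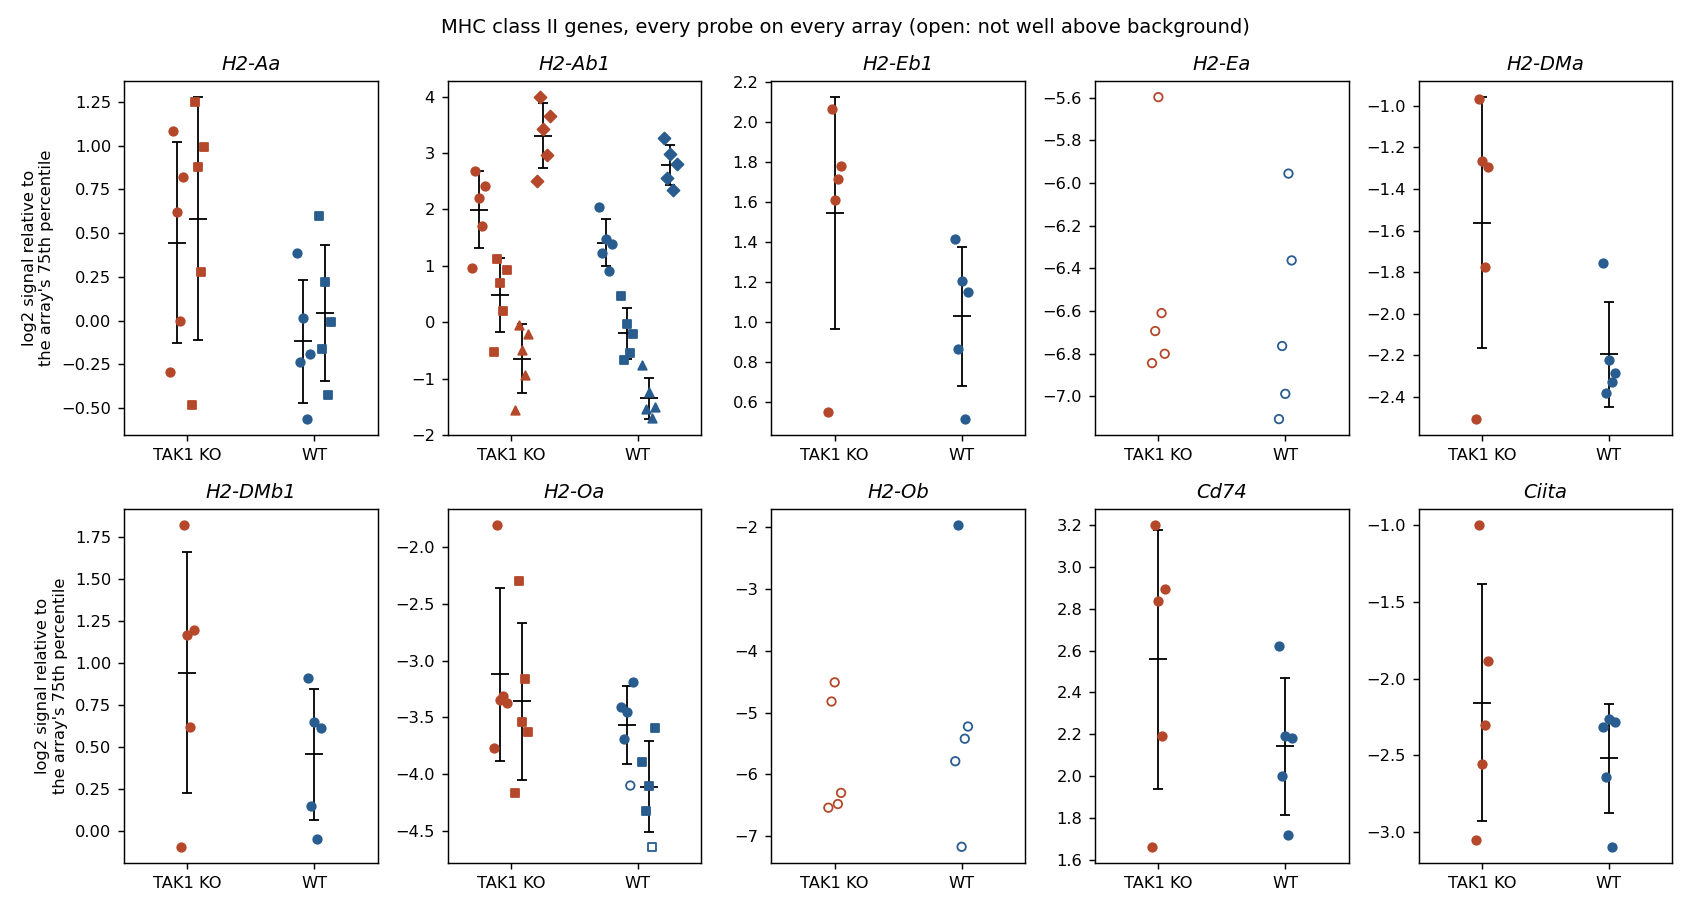
Log2 signal of every class II probe on every array, relative to that array's 75th percentile of signal, with TAK1 KO arrays on the left and WT arrays on the right of each panel. Each symbol shape is a probe, bars give the mean and SD (n = 5 each) of tested probes, and open symbols are spots not well above background; for the tested probes the highest value is always on a knockout array, yet the groups overlap in every panel.

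Values below are log2 signals relative to the 75th percentile of the probes on the same array, so that 0 is the level of that percentile and each step of 1 is a doubling. They compare arrays for one probe and do not rank genes. H2-Aa encodes the alpha chain of I-A, the class II molecule of C57BL/6 mice. Its probe A_51_P119760 had -0.29, 1.08, 0.62, -0.0042 and 0.82 on KO1 to KO5, against 0.39, -0.24, 0.01, -0.56 and -0.19 on WT1 to WT5. KO2, KO3 and KO5 exceeded every wild-type array, while KO1 lay below 4 of them. The difference was 0.56 ± 0.27 (SE, 95% interval -0.04 to 1.17, limma adjusted p = 0.247). The other probe, at chr17:32362310-32362369 (mm7, the build of the file headers), differed by 0.54 ± 0.32 (adjusted p = 0.345).

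H2-Ab1 encodes the I-A beta chain and was read by 4 probes, with differences of 0.52 to 0.70. The probe A_52_P570717 had -1.55, -0.05, -0.49, -0.94 and -0.20 on KO1 to KO5, against -0.76, -1.54, -1.24, -1.70 and -1.51 on WT1 to WT5. KO1 stood at the level of the wild-type arrays and the same 3 knockout arrays as for H2-Aa exceeded all of them. The difference was 0.70 ± 0.29 (95% interval 0.07 to 1.34, limma adjusted p = 0.180). The probe A_51_P215242 (chr17:32342603-32342662, mm7) differed by 0.68 ± 0.32 (adjusted p = 0.237). The probe at chr17:32345268-32345327, spotted 10 times on each array, differed by 0.58 ± 0.32 (adjusted p = 0.307), and its 10 spots had SDs of 0.01 to 0.06 within an array, far under the 0.68 (KO) and 0.41 (WT) between arrays. The probe at chr17:32346939-32346998 differed by 0.52 ± 0.28 (adjusted p = 0.291).

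The beta chain gene is polymorphic between mouse strains, and A_51_P215242 and A_52_P570717 are shown because they overlap in sequence without being identical. Over 31 shared positions 29 bases were the same, and the 2 that differed are in capitals.
H2-Ab1 A_51_P215242: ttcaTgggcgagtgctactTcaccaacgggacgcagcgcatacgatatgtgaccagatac
H2-Ab1 A_52_P570717: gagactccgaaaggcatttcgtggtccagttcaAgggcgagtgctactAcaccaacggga
Both sequences come from the deposited files, which give no coordinates for A_52_P570717. With different letters in the overlap, the pair gave differences of 0.68 and 0.70.

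H2-Eb1 encodes the beta chain of I-E. Its probe spans chr17:32392430-32392891 (mm7), longer than the 60 bases of the probe itself. It had 0.55, 2.06, 1.61, 1.71 and 1.78 on KO1 to KO5, against 1.41, 0.87, 1.20, 0.51 and 1.15 on WT1 to WT5. Here 4 of 5 knockout arrays exceeded every wild-type array, and KO1 lay just above WT4, the lowest. The difference was 0.52 ± 0.27 (95% interval -0.09 to 1.12, adjusted p = 0.291), and 0.26 within slide 2.

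H2-Ea encodes the I-E alpha chain, and C57BL/6 mice are known to carry a promoter deletion at this gene and to make no I-E. The RefSeq table lists it as a transcribed pseudogene. Its probe (chr17:32421735-32421794, mm7) was not well above background on any of the 10 arrays, with -6.84, -6.69, -5.60, -6.61 and -6.80 on KO1 to KO5, against -7.11, -6.76, -6.99, -5.96 and -6.36 on WT1 to WT5. It was not tested. The H2-Ea and H2-Eb1 probes are shown side by side as the pair of I-E chains of which only H2-Eb1 was detected.
H2-Eb1 A_51_P393226: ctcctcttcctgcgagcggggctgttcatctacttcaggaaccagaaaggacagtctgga
H2-Ea A_51_P222741: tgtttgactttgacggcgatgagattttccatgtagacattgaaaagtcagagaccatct

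Cd74 encodes the invariant chain, the chaperone that guides class II dimers to endosomes. Its probe, on chromosome 18, had 1.66, 3.20, 2.84, 2.19 and 2.90 on KO1 to KO5, against 2.62, 2.0, 2.19, 1.72 and 2.18 on WT1 to WT5. KO1 was the lowest of all 10 arrays and KO2 the highest. The difference was 0.42 ± 0.28 (95% interval -0.21 to 1.05, adjusted p = 0.414).

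H2-DMa and H2-DMb1 encode the DM heterodimer that loads peptide. H2-DMa (chr17:32217439-32218002, mm7) had -2.51, -0.96, -1.26, -1.78 and -1.29 on KO1 to KO5, against -1.76, -2.38, -2.22, -2.33 and -2.29 on WT1 to WT5. KO1 was again the lowest of the 10 arrays, and 3 knockout arrays exceeded all wild-type arrays. The difference was 0.63 ± 0.26 (95% interval 0.05 to 1.22, limma adjusted p = 0.189). H2-DMb1 (chr17:32236685-32236744, mm7) had -0.09, 1.82, 1.17, 0.62 and 1.20 on KO1 to KO5, against 0.91, 0.15, 0.65, -0.04 and 0.61 on WT1 to WT5, a difference of 0.49 ± 0.33 (adjusted p = 0.409). The order of the arrays was that of Cd74 within each group. Signal of H2-DMb1 and of its close copy H2-DMb2 may mix, since the probe named H2-DMb2 at chr17:32228917-32228976, whose listed accessions belong to both genes, differed by 0.57 ± 0.29 (adjusted p = 0.275).

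H2-Oa and H2-Ob encode the DO heterodimer, which inhibits DM and is known mainly from B cells and thymic epithelium. Both H2-Oa probes were dim, above background on 5 knockout and 4 wild-type arrays. The probe A_51_P449329 (chr17:32174875-32174935, mm7) had -4.17, -2.29, -3.54, -3.16 and -3.63 on KO1 to KO5, against -3.89, -4.32, -4.11, -4.64 and -3.59 on WT1 to WT5, a difference of 0.75 ± 0.32 (95% interval 0.04 to 1.47, limma adjusted p = 0.199). It was 0.26 both within slide 2 and after normexp background correction with quantile normalization. The probe A_51_P449325 (chr17:32174944-32175003, mm7) had -3.77, -1.80, -3.35, -3.31 and -3.37 on KO1 to KO5, against -3.41, -3.69, -3.45, -4.10 and -3.19 on WT1 to WT5, a difference of 0.45 ± 0.33 (adjusted p = 0.460), with 0.21 within slide 2 and 0.20 after normexp and quantile normalization. KO2 stood alone at the top in both probes, and in A_51_P449325 no other knockout array exceeded WT5. H2-Ob (chr17:32321710-32321941, mm7) was well above background on a single array, WT2, at -1.96. The other 9 arrays read -4.51 or lower, and it was not tested.

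Ciita encodes the transactivator that switches class II genes on. Its probe (chr16:10203747-10203806, mm7) had -3.05, -1.0, -2.55, -2.30 and -1.89 on KO1 to KO5, against -2.32, -2.64, -2.26, -3.10 and -2.28 on WT1 to WT5. Only KO2 and KO5 exceeded all wild-type arrays. The difference was 0.36 ± 0.34 (95% interval -0.39 to 1.12, adjusted p = 0.568), the smallest of the 13. It was 0.08 within slide 2 and 0.21 after normexp and quantile normalization.

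**Figure D2:**
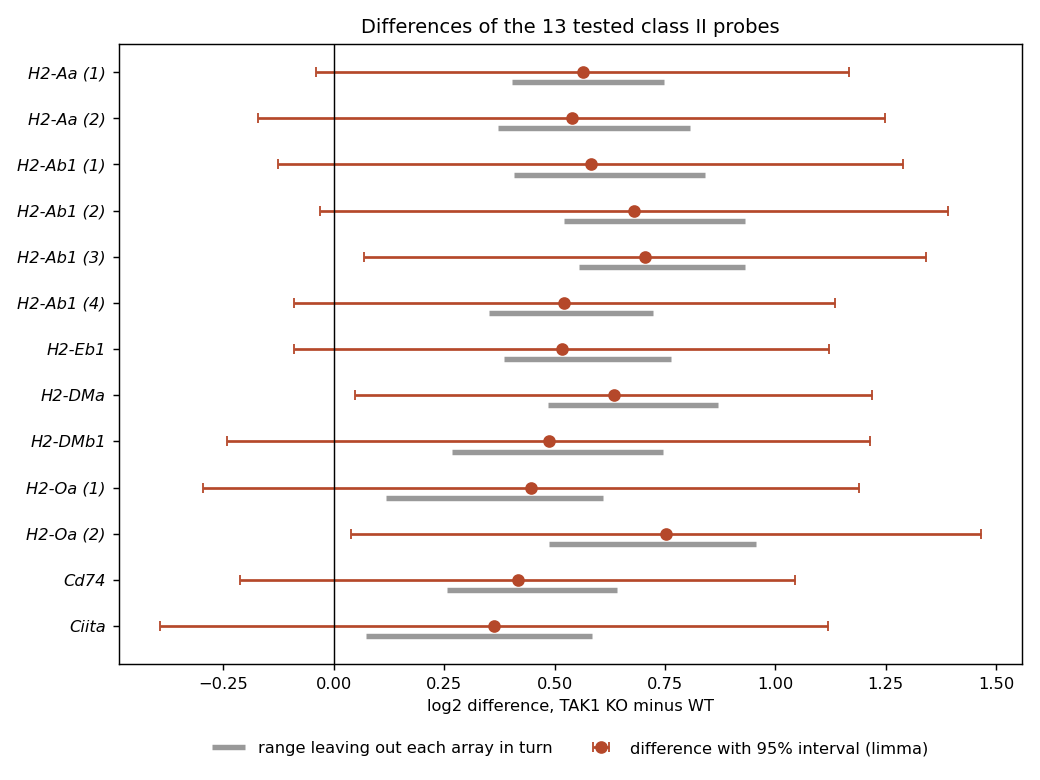
Log2 difference, TAK1 KO minus WT, of the 13 tested class II probes (5 arrays in each group), with 95% intervals from the limma fit in red and, in grey, the range of the difference when each array was left out in turn. Numbers in brackets count the probes of a gene. All 13 differences are positive, from 0.36 to 0.75, and most intervals reach below 0.

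The wide intervals came from the spread between arrays. The median standard error was 0.32 for the 13 member probes and 0.12 for all kept probes. Knockout arrays were the more variable for 13 of 13 member probes and for 77.9% of all, and the median ratio of the knockout to the wild-type SD was 1.73 for the members and 1.59 for all. A single pair of knockout arrays set the ends of this range. KO2 was the highest of the 10 arrays for 13 of 13 probes and KO1 was the lowest knockout array for 13 of 13. In wild type, WT1 was highest for 10 of 13 probes and WT4 lowest for 11. Relative to the wild-type mean of each probe, the median member probe stood at -0.32 on KO1, 1.27 on KO2, 0.71 on KO3, 0.26 on KO4 and 0.87 on KO5, and at 0.47 on WT1, -0.19 on WT2, 0.13 on WT3, -0.47 on WT4 and 0.02 on WT5.

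The count of calls depended on KO1, and the count at an unadjusted p under 0.05 on several arrays. That count, 3 of 13 with all arrays, was 11 without KO1, 6 without WT1, 1 without KO5, WT3 or WT5, and 0 without KO2, KO3, WT2 or WT4. Without KO1, 3 of 13 member probes passed the adjusted threshold, all higher in the knockout: H2-DMa by 0.87 (limma adjusted p = 0.027), H2-Eb1 by 0.76 (adjusted p = 0.040) and H2-Ab1 A_52_P570717 by 0.93 (adjusted p = 0.045). Over all kept probes the fit without KO1 called 1580, against 1174 with it. Without KO2 the count was 0 and the median difference 0.39, and the difference of H2-Oa A_51_P449325 was 0.12 and that of Ciita 0.07. Without both KO1 and KO2, a choice made after seeing the data, H2-DMa alone passed (0.75, adjusted p = 0.042) and the median was 0.67. In every one of these fits 13 of 13 differences were positive. Slide 2 is the only slide with both groups. There the median member difference was 0.50, in a range of 0.08 (Ciita) to 0.81 (H2-Ab1 A_52_P570717), with KO2 above WT5 for each of the 13 probes, KO3 for 11 and KO1 for 0.

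**Figure D3:**
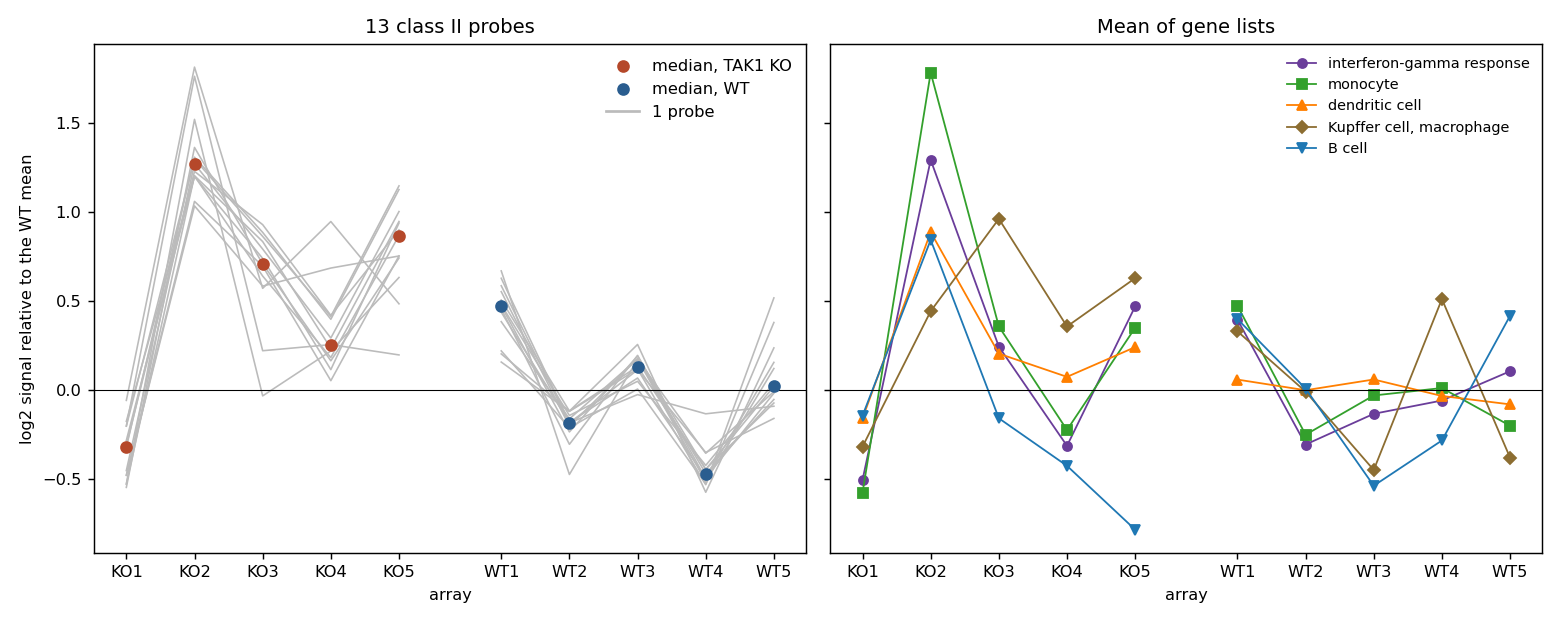
Left, log2 signal of the 13 tested class II probes relative to each probe's wild-type mean on KO1 to KO5 and WT1 to WT5, with a grey line for each probe and a point for the median. Right, the mean over the tested probes of 5 gene lists on the same scale; lines join the values of one probe or list and give no order to the arrays. KO2 is the highest array for the class II median (1.27), the interferon-gamma response (1.29) and the monocyte list (1.79), and KO1 is the lowest knockout array for these 3.

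The class II genes varied together from array to array within the groups. With the group means removed, the values of H2-Aa, H2-Ab1, H2-Eb1 and Cd74, each by its brightest probe, were compared in 6 pairs over the 10 arrays. Pearson's r was 0.89 to 0.99 and Spearman's rho 0.88 to 1 (permutation within groups, 100000 resamples, highest adjusted p over the 6 pairs 0.00072 for r and 0.0032 for rho). Without the 2 arrays farthest from the median, r was 0.72 to 0.98, the lowest 3 values being the pairs with H2-Eb1. Each slide held too few arrays of both groups for a value within a slide. Set against the mean of these 4 genes on the same array, the 13 probes differed between knockout and wild type by -0.14 (Ciita) to 0.25 (H2-Oa A_51_P449329) on the log2 scale. Of the 13, the 4 probes that form this mean have differences that cancel out by construction. The other H2-Aa and H2-Ab1 probes read the same RNA as 2 of them. With the group means removed, the mean of the 4 genes was lowest on KO1 (-0.94) and highest on KO2 (0.63) of the 10 arrays.

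Outside the members, the 8 named genes whose values followed the mean of these 4 most closely, among 15740 genes, were H2-DMb2 (r = 0.98), Glipr1 (0.97), Slc12a9 (0.95), Olfr1036 (0.95), Neurl4 (0.95), Asxl1 (0.95), Ruvbl2 (0.94) and Smad5 (0.94). They were chosen as the highest values over 10 arrays, and 32 genes of the 15740 had r above 0.9. None of the 8 passed the test between knockout and wild type. Their differences ran from -0.27 (Slc12a9) to 0.63 (Olfr1036). The array patterns were compared with the group means removed, so r carries no information on these differences. Among the members themselves, r with that mean, which does not include them, was 0.98 for H2-DMb1, 0.96 for H2-DMa, 0.86 for Ciita and 0.74 for H2-Oa.

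Factors that control class II transcription gave no call. Of 23 tested probes of 12 regulators, 0 were called in limma (5 at an unadjusted p under 0.05), 11 were positive and the median difference was -0.0046. Rfxap, a subunit of the RFX complex, had the smallest p, with 0.27 ± 0.07 (adjusted p = 0.057), while its other tested probe differed by -0.09 (adjusted p = 0.557). Of 17 probes of 11 endosomal processing genes 0 were called (2 at an unadjusted p under 0.05, both lower in the knockout) and the median was 0.01. Cstb, an inhibitor of cathepsins, had the smallest p and a negative difference of -0.23 ± 0.06 (adjusted p = 0.055). Of 9 probes of 8 turnover and costimulation genes 0 were called (2 at that unadjusted level), with a median of 0.21. Marchf8, of the MARCH family of membrane ubiquitin ligases, differed by -0.33 ± 0.09 (adjusted p = 0.075).

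Genes of MHC class I presentation, the pathway for peptides from inside the cell, gave 0 calls among 23 probes of 14 genes (1 at an unadjusted p under 0.05) and a median of 0.04. Erap1, a peptide-trimming protease, had the smallest p, with 0.23 ± 0.10 (adjusted p = 0.213). Interferon-gamma response genes outside presentation gave 0 calls among 15 probes of 13 genes (3 at an unadjusted p under 0.05), 12 of them positive, with a median of 0.26. Socs1, a feedback inhibitor of cytokine signalling, differed by 0.63 ± 0.26 (adjusted p = 0.189). The mean of this list ran from -0.51 on KO1 to 1.29 on KO2 among knockout arrays, and from -0.31 to 0.40 among wild-type arrays, with WT1 the highest. KO1 was the lowest and KO2 the highest knockout array for these genes as for class II, and the part of these genes in the class II values was not tested.

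**Figure D4:**
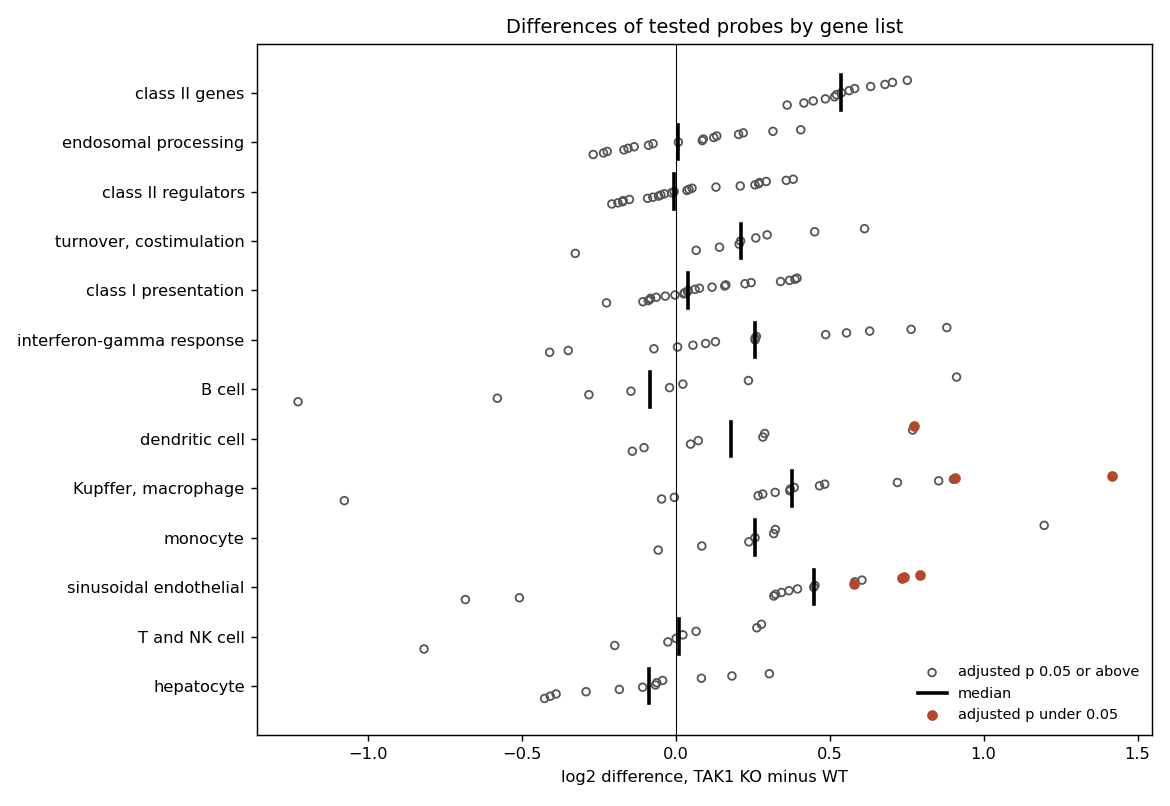
Log2 difference, TAK1 KO minus WT, of each tested probe by gene list, with a black bar at the list median and filled red points for probes with an adjusted p under 0.05. The class II genes sit between 0.36 and 0.75 with no filled point, while the Kupffer and macrophage, sinusoidal endothelial and dendritic cell lists hold 2, 4 and 1.

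Markers of cells that carry class II were read beside the members. Of the Kupffer cell and macrophage markers 13 of 13 genes were above background on all 10 arrays, and 2 of 16 tested probes rose in the knockout (background 2.06%). These were Msr1, a scavenger receptor, with 1.42 ± 0.24 on 1 of its 3 probes (adjusted p = 0.012), and Cd163, a haemoglobin scavenger receptor, with 0.91 ± 0.22 (adjusted p = 0.045). The other Msr1 probes differed by 0.85 and 0.90 without passing (adjusted p = 0.079 and 0.080). Of the 16 probes 13 were positive and 5 were higher at an unadjusted p under 0.05. The 3 negative ones were Marco, another scavenger receptor, at -1.08 ± 0.77 (adjusted p = 0.439), Timd4 at -0.05 and Adgre1, which encodes the F4/80 antigen, at -0.0040. The list median was 0.38 and its mean on the arrays ran from -0.32 to 0.96 in the knockout and from -0.45 to 0.51 in wild type. KO3 was the highest here, where KO2 was the highest for class II.

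Of the sinusoidal endothelial markers 10 of 10 genes were above background on all arrays and 4 of 15 tested probes rose (background 2.06%). They were 3 probes of Fcgr2b, the inhibitory Fc receptor, which B cells and macrophages also carry, with 0.74 to 0.79 (adjusted p = 0.041 to 0.046), and Dnase1l3, a secreted nuclease, with 0.58 ± 0.12 (adjusted p = 0.028). Both probes of Lyve1, a hyaluronan receptor, differed the other way without passing, by -0.68 and -0.51 (adjusted p = 0.152 and 0.419). Of the 15 probes 13 were positive, 10 were higher and 1 lower at an unadjusted p under 0.05, and the median was 0.45. The list mean was 0.22 to 0.84 on the knockout arrays and -0.47 to 0.17 on the wild-type arrays, without overlap, and KO1 (0.27) stood above KO2 (0.26). Among all kept probes, taken singly, 3.86% had every knockout array above every wild-type array.

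Of 11 dendritic cell markers 6 were above background on all arrays and Siglech on none. Zbtb46, a transcription factor of conventional dendritic cells, rose on 1 of its 2 tested probes (0.77 ± 0.19, adjusted p = 0.048), and the other differed by 0.05. This was 1 call among 8 tested probes (background 2.06%), with a median of 0.18. The list mean ran from -0.16 on KO1 to 0.89 on KO2, against -0.08 to 0.06 in wild type. The markers did not share the high KO2 value evenly. On KO2 Clec10a read 0.62, Itgax -1.09 and Batf3 0.41, against wild-type means of -2.08, -2.68 and -1.07. Xcr1 (-2.52) and Itgae (-2.78) stayed near their wild-type means of -2.62 and -2.74.

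Of 11 B cell markers 6 were above background on all arrays, and Cd79a, Blk and Fcer2a on none. Among 8 tested B cell probes 0 were called (1 at an unadjusted p under 0.05) and 3 were positive, with a median of -0.08. Cd37, a tetraspanin of B cells and among the 3 positive probes, had the smallest p (0.91 ± 0.39, adjusted p = 0.194). Ighm went the other way, by -1.23 ± 0.88 and -0.58 ± 0.45 on its probes (adjusted p = 0.441 and 0.475). Cd79b (-0.28) and Cd22 (-0.14) were negative as well. The list mean was -0.79 to 0.84 on the knockout arrays and -0.54 to 0.42 on the wild-type arrays. KO5, with the second highest class II values, was the lowest array for the B cell markers by this mean. The Ighm probes weighed heavily in it, reading -2.55 and -0.15 on KO5 against wild-type means of 0.22 and 1.40. The place of KO5 thus leaned on this gene.

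Of 7 monocyte markers with a probe, 4 were above background on all arrays, and among 7 tested probes 0 were called (0 at an unadjusted p under 0.05 as well), with a median of 0.26. Chil3, a chitinase-like protein of myeloid cells, had the smallest p (1.20 ± 0.96, adjusted p = 0.494). The list mean ran from -0.58 on KO1 to 1.79 on KO2, against -0.25 to 0.47 in wild type. Of 10 T and NK cell markers 6 were above background on all arrays, and Cd8a and Ncr1 on none. Among 8 tested probes 0 were called (0 at that unadjusted level), with a median of 0.01. Of the 8 probes 5 were positive. Klrb1c, an NK cell receptor, had the smallest p and differed by -0.82 ± 0.38 (adjusted p = 0.227). It was well above background on only 2 of 5 knockout arrays, against 5 of 5 wild-type arrays, so the size of this difference is uncertain. The list mean ran from -0.83 on KO1 to 0.65 on KO2, against -0.31 to 0.43 in wild type.

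Hepatocyte markers gave 0 calls among 12 probes of 9 genes (2 at an unadjusted p under 0.05) and a median of -0.09. Asgr1, a subunit of the asialoglycoprotein receptor, had the smallest p (-0.18 ± 0.06, adjusted p = 0.116). The list mean was -0.59 on KO2, the lowest of the 10 arrays, while the other knockout arrays ran from -0.10 to 0.08 and the wild-type arrays from -0.11 to 0.10. The markers did not share the low KO2 value evenly. On KO2 Tat read 5.24 and Cps1 5.41, against wild-type means of 6.83 and 6.59. The Hnf4a probes reading 3.93 and -0.03 on KO2 were there the highest of the 10 arrays. Among T cell markers, Cd3e read -2.36 on KO2, below its wild-type mean of -1.99. By list mean, KO2 was highest for class II, interferon-gamma response, monocyte, dendritic, B cell and T cell genes and lowest for hepatocyte genes. The part of these other lists in the class II differences was not tested.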

How the data were processed

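The intensity of each spot was read by the authors with Agilent Feature Extraction (9.5 per the submitters' processing notes, with 9.5.1.1 in the headers), which subtracted background and detrended within the array, per the file headers. Values of the deposited series table were identical to these intensities. Here intensities were put on the log2 scale without a pseudocount, less each array's 75th percentile (950.3 to 1344). Control and outlier spots were left out and replicate spots averaged. A probe was kept when either group had it well above background on 4 or more arrays (23266 of 41174, 13 of 15 member probes). Names were updated through a RefSeq table (22944 probes by accession, 6664 by current and 3108 by older symbol, 8458 as in the files). Groups were compared with limma 3.58.1 in R 4.3.3, genotype as the only term, two-sided, Benjamini-Hochberg over all kept probes, tested on simulated data. The smallest exact permutation p for 5 against 5 arrays is 0.0079. Among the tested member probes the smallest exact permutation p was 0.071 (H2-Oa A_51_P449329). The number of arrays limits the precision.

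The members and lists were chosen with earlier results of these data known. Named genes were all members, up to 3 called probes of each list or else the gene with the smallest p, and the 8 genes most like the class II pattern. List means per array cover tested probes. Probes were not placed in exons or introns, for lack of an mm7 genome. Same-numbered arrays did not deviate together (r = -0.21 to 0.04). Alternatives covered normalization, scaling, filter, probes per gene, outlier spots, slide, replicate number, array weights and each array left out.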

Additional observations from a re-analysis of the deposited data

Results flagged for a closer look

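Among 30 groups of member values (15 probes in both genotypes), 3 held an array far from the other 4 by Dixon's test at the 95% level, which chance gives in about 5% of groups. H2-Oa A_51_P449325 read -1.80 on KO2, where the next knockout array read -3.31. H2-DMa read -1.76 on WT1, where the next wild-type array read -2.22. H2-Ea read -5.60 on KO3 and -6.61 on the next knockout array, and this probe was not well above background on either.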

How the results depend on the processing

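All 13 member differences stayed positive under the 22 alternatives in which a probe was fitted. The median difference was 0.49 to 0.65 under the alternatives that kept all arrays, 0.50 within slide 2, 0.39 to 0.76 with each array left out and 0.67 without KO1 and KO2. With slide as a fixed block each difference equals that within slide 2, the only slide with both groups, so these are 1 comparison. Single probes moved more: both H2-Oa probes and Ciita were 0.20 to 0.26 after normexp and quantile normalization, and 0.08 to 0.26 within slide 2. At an unadjusted p under 0.05 the count of 3 was 9 without scaling between arrays and 0 with slide as a fixed block or within slide 2. The count of member probes called was 0 under each alternative that kept all arrays and within slide 2, 0 to 3 with each array left out, and 1 without KO1 and KO2, which was chosen after seeing the data. The 3 calls came without KO1, and H2-DMa was the 1 without both. The count over all kept probes, 1174 here, was 602 without scaling between arrays (406 higher in the knockout, against 480 here; median of all probes 0.12), 288 with no filter on dim probes, 45 with slide as a fixed block, 1864 with slide as a random block, 2 within slide 2, and 347 to 1580 with each array left out. Replicate numbers did not pair the samples. With the replicate number as a block, 221 of all probes and 0 member probes were called. Among the wild-type arrays, no knockout array correlated best with the one of its own number. The causes were not tested. Slides 1, 3 and 4 each held 1 group, and dim probes (H2-Oa) had signal above background on only 4 of 5 wild-type arrays.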

Other observations

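A probe named only for the cDNA AK005018 had a class II-like array pattern (r = 0.98 with the mean of H2-Aa, H2-Ab1, H2-Eb1 and Cd74, rank 4 of 15740 genes). It read -2.36, -0.79, -1.21, -1.37 and -0.93 on KO1 to KO5, against -1.49, -2.15, -1.92, -2.47 and -1.92 on WT1 to WT5. Its difference was 0.66 ± 0.29 (limma adjusted p = 0.207). This probe was picked out after its values were seen.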
